A study of Mus musculus with 6 samples.

Results

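The nuclear-encoded genes of oxidative phosphorylation (OXPHOS) were taken from the deposited series table by symbol: those that begin with Nduf followed by a, b, c, s or v and a digit, with Uqcr, with Cox4 to Cox8, or with Atp5. The pattern found 85 of the 51810 genes in that table, 40 named for complex I, 8 for complex III, 19 for complex IV and 18 for complex V. They stand for 84 symbols, because Atp5o has 2 rows. The cells were mTEChi, the mature medullary epithelial cells of the mouse thymus with high surface class II MHC. The cKO group had 3 libraries with the genotype P53-cKO, a conditional deletion of Trp53, the gene of the transcription factor p53. The WT group had 3 libraries labelled NoCre with the genotype P53-WT. All mice were 4 to 5 weeks old, and 75000 cells went into each sample after enrichment for EpCAM and flow sorting. The driver of the Cre is not given in the labels, nor whether a NoCre mouse carried floxed alleles. It is also not given whether 2 libraries of a group came from different animals, so the tests measure the spread between these samples, part of which may be technical.

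In oxidative phosphorylation, electrons from NADH enter at complex I, those from succinate at complex II, and both streams pass through complex III to complex IV, which reduces oxygen. The protons pumped on the way drive complex V, the ATP synthase. Most subunits are encoded in the nucleus and imported into mitochondria, and a few are encoded by mitochondrial DNA. Outside the thymus p53 is known to affect respiration through targets such as the complex IV assembly factor Sco2, and medullary epithelium is known for transcribing genes of other tissues, which can include muscle and testis forms of respiratory subunits.

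Total counts were 46500807 to 50128045 in the cKO libraries and 45457892 to 48564222 in the WT libraries. The deleted gene matched the labels: Trp53 had 4.65, 4.51 and 4.1 TPM in cKO and 66.7, 55.6 and 60.2 TPM in WT, where TPM is the authors' read count per gene length scaled to a fixed sum. Its log2 fold change, cKO over WT, was -3.81 (SE 0.0999, edgeR quasi-likelihood test, Benjamini-Hochberg adjusted p = 5.76e-10). All 14 mTEChi markers were expressed and none passed the test. Among them Aire, the regulator of tissue antigens that marks these cells, had 495, 705 and 680 TPM in cKO and 861, 748 and 704 TPM in WT. Summed TPM of 7 red cell markers was 121 to 178 in cKO and 190 to 207 in WT, without overlap, and that of 13 thymocyte markers was 77.6 to 121 in cKO and 72.8 to 132 in WT. The 13 subunits encoded by mitochondrial DNA, like all 37 mitochondrial rows, had a value of 0 in all 6 libraries, so the counts describe the nuclear subunits alone.

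No OXPHOS gene passed the test between cKO and WT. Of the 85 genes, 83 had enough counts to be tested, and 0 were higher and 0 lower at an adjusted p of 0.05 (edgeR quasi-likelihood test, Benjamini-Hochberg over 28543 genes), where 0.0596% of all tested genes passed in either direction (0.0245% higher, 0.035% lower). At an unadjusted p of 0.05, 3 were higher and 4 lower, beside 4.28% and 4.23% of all tested genes, or 8.51% either way. DESeq2 called 1 OXPHOS gene higher and 0 lower, beside 137 higher and 49 lower of the 28543 genes. With limma-voom no OXPHOS gene was called, beside 0 higher and 5 lower of the 28543 genes. The edgeR log2 fold change was above 0 for 31 and below 0 for 52 of the 83 OXPHOS genes, or 62.7% below 0 beside 51% of all tested genes. The median was -0.033, with quartiles of -0.13 and 0.069, and the median of all tested genes was -0.0053. The OXPHOS median turned to 0.021 without WT library 2 and was -0.094 without cKO library 3, so its direction rested on 1 library. Only 4 genes had a log2 fold change of 0.5 or more in size. The SE had a median of 0.128 and ran from 0.0686 to 1.36.

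**Figure D1:**
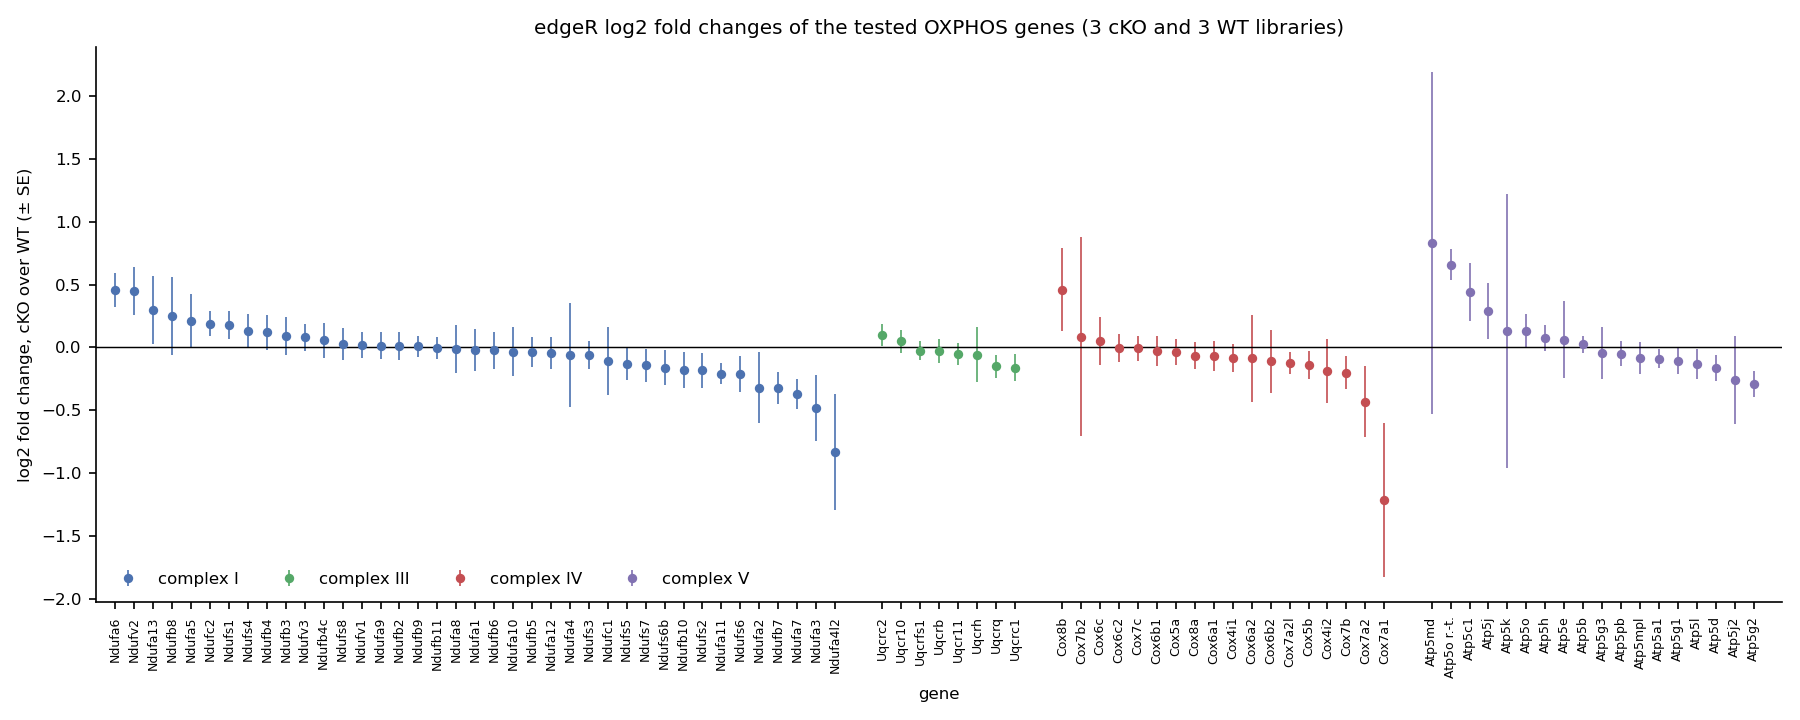
Log2 fold changes, cKO over WT, of the 83 tested OXPHOS genes from the edgeR fit, ordered by value within each complex, with bars of 1 SE. Most lie close to 0, the long bars belong to Atp5md, Atp5k and low isoforms such as Cox7b2, and the read-through row of Atp5o (Atp5o r.-t.) stands at 0.66 with a short bar.

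The part of the transcriptome taken by the whole set did not differ between groups beyond the spread between libraries. OXPHOS genes held 0.66%, 0.653% and 0.709% of all counts in cKO and 0.662%, 0.717% and 0.705% in WT. The means were 0.674% ± 0.0305 in cKO and 0.695% ± 0.0289 in WT (SD, n = 3 each), a ratio of 0.97. Summed TPM was 9650 ± 491 in cKO and 9669 ± 351 in WT, a ratio of 0.998, and the groups overlapped on both scales. In bulk RNA, fewer cells of a kind and less RNA in each cell cannot be told apart. By complex, the ratios of the shares of counts were 0.989 for complex I, 0.964 for III, 0.93 for IV and 0.98 for V, each with overlapping groups.

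The ribosomal protein genes are another large set of short and highly transcribed housekeeping genes. Cytosolic ones were taken by symbols that begin with Rpl or Rps and a digit, which also takes in the kinase gene Rps6ka2. This list held 0.956%, 0.891% and 0.987% of counts in cKO and 1.03%, 1.12% and 1.11% in WT, without overlap. Of the 97 tested, 87 had a log2 fold change below 0, with a median of -0.18, and 0 passed the test. The 78 mitochondrial ribosomal protein genes, whose products translate the subunits encoded by mitochondrial DNA, had 62 below 0 and a median of -0.080. Their share was 0.199% ± 0.0105 in cKO and 0.212% ± 0.00659 in WT (SD, n = 3 each), and there the groups overlapped. The difference between these lists and the OXPHOS genes was not tested.

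**Figure D2:**
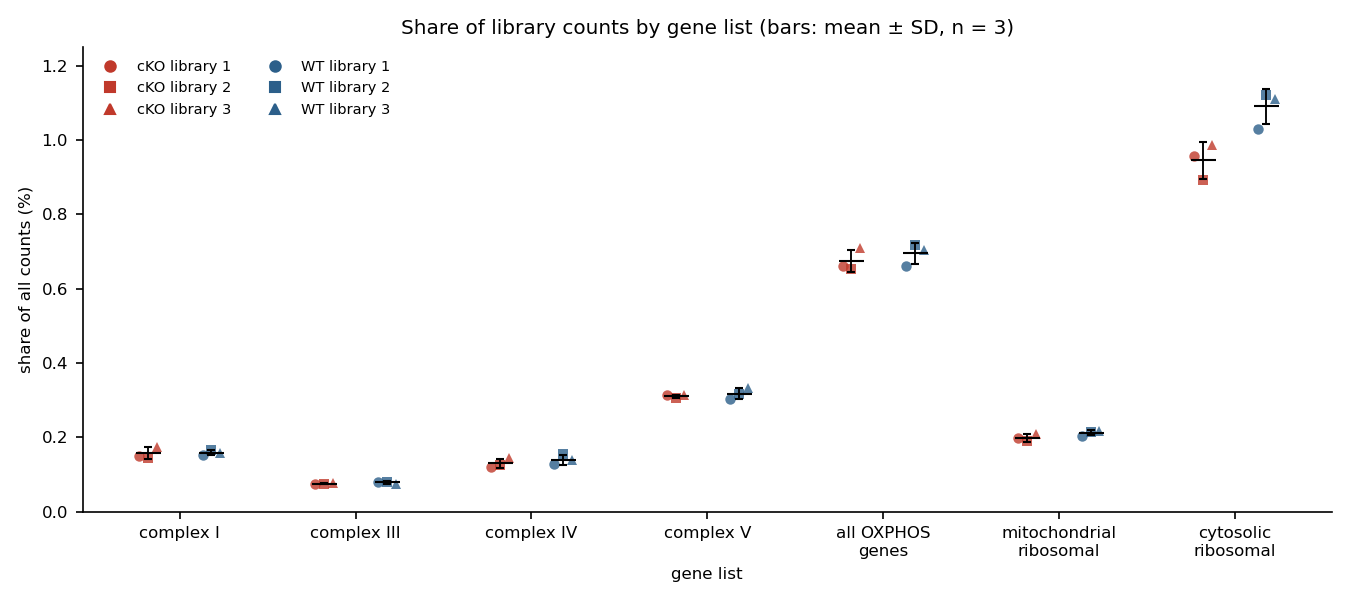
Share of all counts (%) held by the OXPHOS genes of each complex, all OXPHOS genes and 2 lists taken by ribosomal protein symbols. Each library has 1 point, cKO left of WT, with the mean ± SD of 3 libraries. The OXPHOS points of cKO and WT overlap, while the cytosolic ribosomal points of cKO, 0.891% to 0.987%, lie below those of WT, 1.03% to 1.12%.

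Mean levels on the per-length scale ran from 0 for Cox8c to 757 TPM. The highest mean over all libraries belonged to Atp5a1, the alpha subunit of the catalytic head of ATP synthase, which was followed by Cox6b1 at 687 TPM, Atp5b, the catalytic beta subunit, at 628 TPM, Cox4i1 at 575 TPM and Cox8a at 531 TPM. Both head genes were even between libraries. Atp5a1 had 788, 749 and 684 TPM in cKO and 783, 756 and 782 TPM in WT, a log2 fold change of -0.088 (SE 0.0724, edgeR adjusted p = 0.8). Atp5b had 657, 652 and 608 TPM in cKO and 620, 602 and 630 TPM in WT, a log2 fold change of 0.026 (SE 0.0686). Median levels by complex were 52.8 TPM for I, 149 for III, 58.8 for IV and 60.4 for V. At the low end stood the tissue-restricted subunits of complex IV and the complex I row Ndufa11b.

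**Figure D3:**
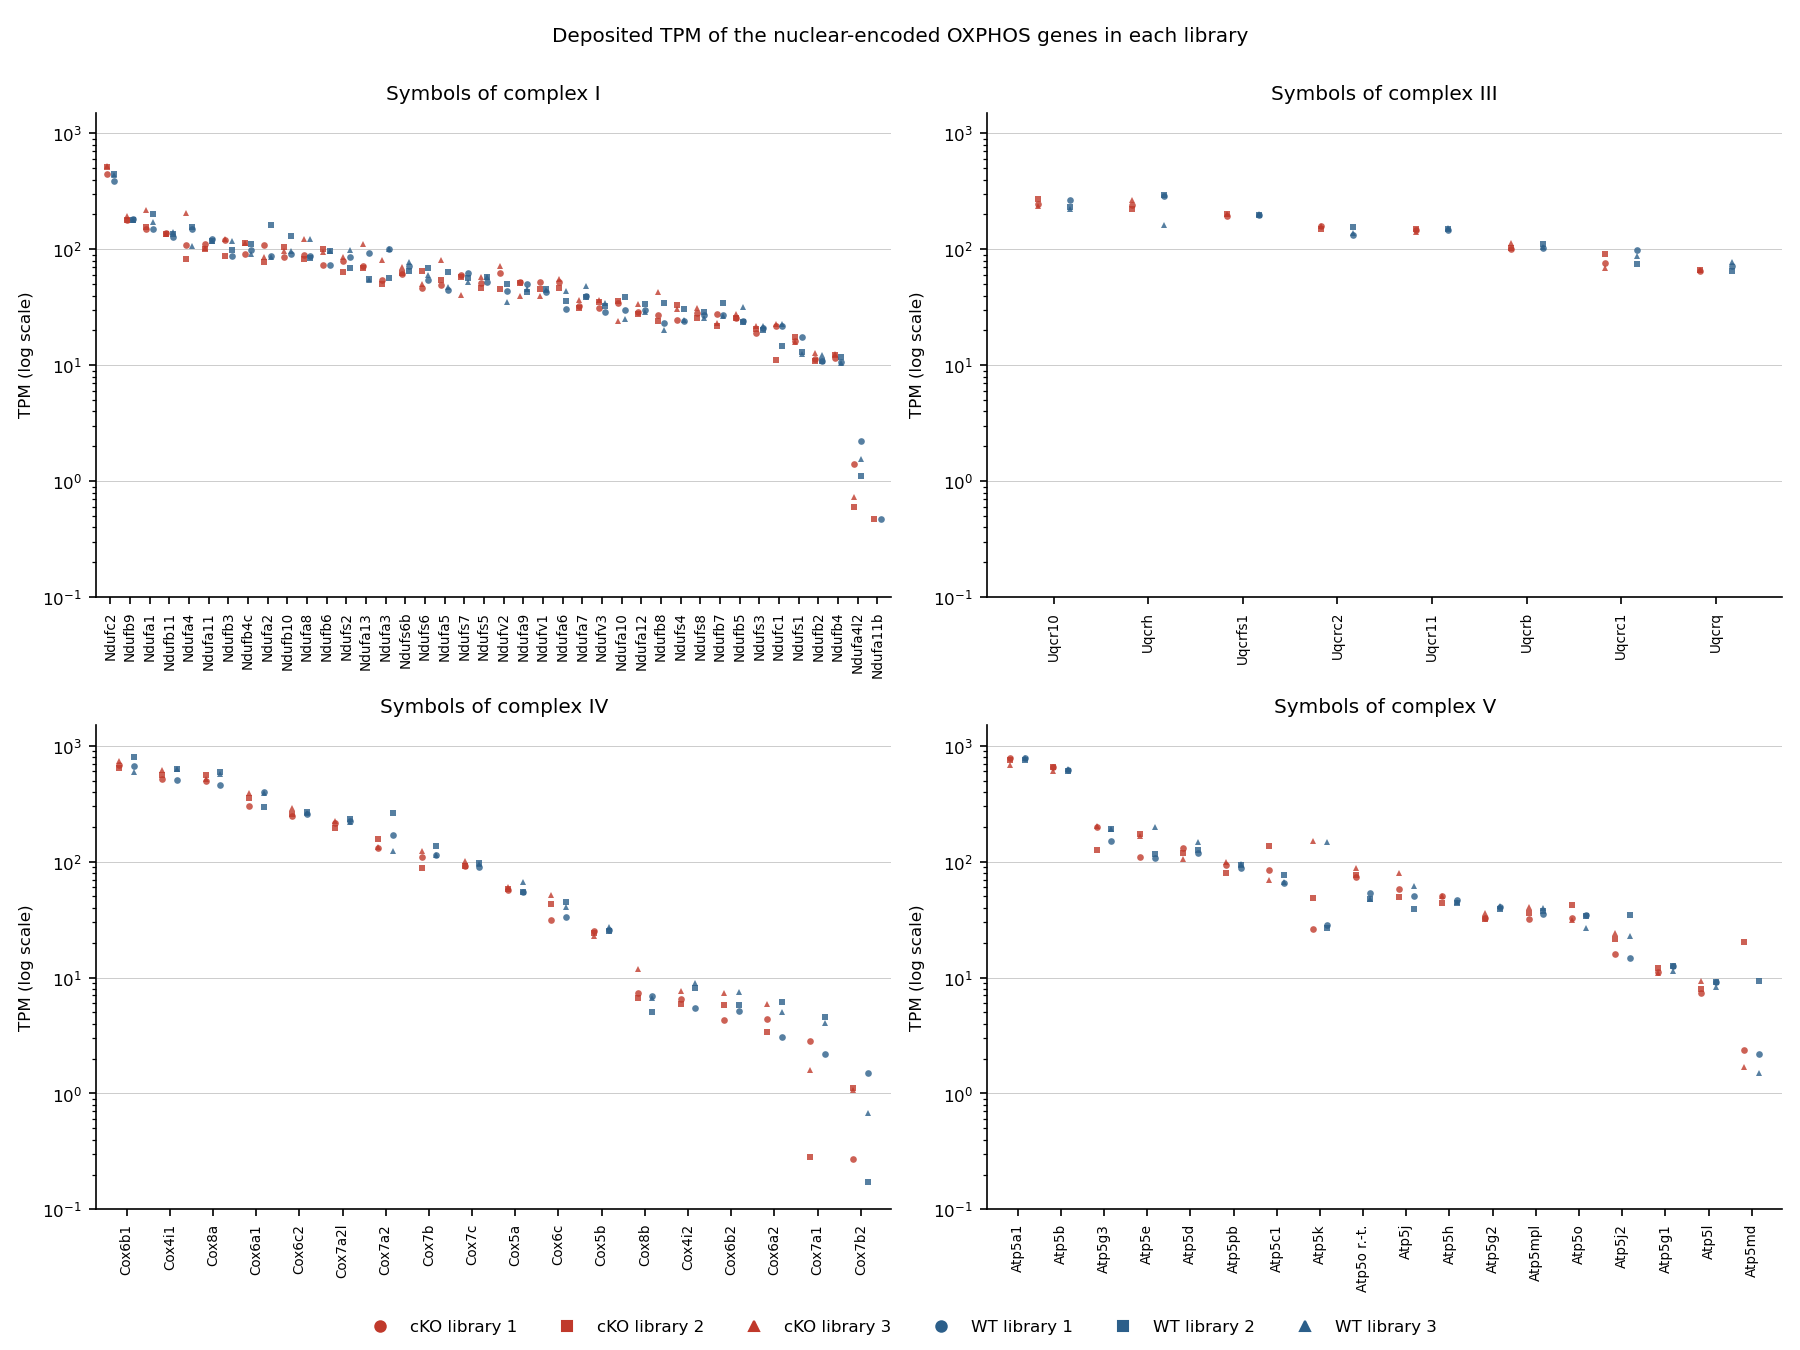
Deposited TPM (log axis) of each OXPHOS gene in each library, by complex and in order of mean level, cKO left of WT, with symbol shapes for the library number. Cox8c and single libraries at 0 are not drawn. Most genes lie between 10 and 300 TPM with cKO and WT intermixed, and the low tail holds Ndufa4l2 and the tissue isoforms of complex IV.

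Complex I is built from a core that carries electrons from NADH to ubiquinone and a large number of accessory subunits. Of the 7 core genes 4 were above 0 and 3 below, around a median log2 fold change of 0.018. Among them Ndufv2, an iron-sulfur subunit of the NADH-oxidizing tip, had 62.7, 45.4 and 72.2 TPM in cKO and 44, 50.7 and 35.2 TPM in WT. The groups overlapped, and its log2 fold change of 0.45 (SE 0.192) did not pass (edgeR adjusted p = 0.583). Its partner at the tip, Ndufv1, which binds NADH, had 45.6 ± 6.51 TPM in cKO and 44.3 ± 0.971 TPM in WT (SD, n = 3 each).

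The 28 accessory genes of complex I had 12 log2 fold changes above 0 and 16 below, and a median of -0.016. Over all 39 tested genes of complex I the median was -0.021, and it lay between -0.078 without cKO library 3 and 0.041 without WT library 2. Ndufa6, an accessory subunit of the LYR family that holds an acyl carrier protein, had 52.6, 46.7 and 55 TPM in cKO and 30.7, 36 and 43.4 TPM in WT. Every cKO library lay above every WT library. Its log2 fold change was 0.46 (SE 0.134, unadjusted p = 0.00461), and it did not pass the adjusted test (edgeR adjusted p = 0.347). Over 17 alternative settings its adjusted p ran from 0.0492, without a filter on low counts, to 0.614.

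Some accessory genes stood the other way. Ndufa7 had 32.4, 31 and 36.3 TPM in cKO and 39.3, 39 and 48.4 TPM in WT, a log2 fold change of -0.37 (SE 0.121, edgeR adjusted p = 0.419). Ndufa11, a subunit of the membrane arm, had 111, 101 and 102 TPM in cKO and 122, 118 and 118 TPM in WT, a log2 fold change of -0.21 (SE 0.0842, edgeR adjusted p = 0.523). In both, all cKO libraries lay below all WT libraries. Ndufb7 had a log2 fold change of -0.32 (SE 0.127) with overlapping groups. The most abundant accessory gene, Ndufc2 of the membrane arm, had 494 ± 43.1 TPM in cKO and 425 ± 29.7 TPM in WT (SD, n = 3 each), a log2 fold change of 0.19 (SE 0.0966). Ndufb9 and Ndufa1, next in level in this complex, were at 185 ± 9.36 and 175 ± 38.6 TPM in cKO and at 180 ± 1.97 and 174 ± 24.1 TPM in WT.

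Across all 83 tested genes, the groups did not overlap for 2 that were higher in cKO, Ndufa6 and the read-through row of Atp5o, and for 4 that were lower, Ndufa7, Ndufa11, Atp5g2 and Uqcrq. Of all tested genes, 7.14% were separated upward and 7.28% downward in the same way, 14.4% in all.

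The genes of complex III were measured with the smallest error, with a median SE of 0.0895 beside 0.137 for complex I and 0.126 for IV and for V. The log2 fold changes of its 8 genes lay between -0.16 and 0.10 around a median of -0.041, which turned to 0.0045 without WT library 2. Uqcrfs1, the Rieske iron-sulfur protein, had 193, 202 and 202 TPM in cKO and 197, 197 and 203 TPM in WT, a log2 fold change of -0.026 (SE 0.0761). Uqcr10, a small subunit, had 252 ± 18.5 TPM in cKO and 240 ± 20.6 TPM in WT (SD, n = 3 each). Uqcrh, the hinge protein near cytochrome c1, was less even, with 240, 221 and 265 TPM in cKO and 287, 294 and 163 TPM in WT, and WT library 3 was the lowest of the 6. Uqcrq had 64.8, 66.2 and 66 TPM in cKO and 72.3, 64.7 and 78.3 TPM in WT. It was separated on the scaled counts but overlapped on TPM, and its log2 fold change was -0.15 (SE 0.091, edgeR adjusted p = 0.702).

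In complex IV, cytochrome c oxidase, 15 of the 18 tested genes had a log2 fold change below 0, with a median of -0.076, and none had an unadjusted p under 0.05. The median was -0.012 without cKO library 1, -0.028 without WT library 3, -0.16 without WT library 1 and -0.17 without cKO library 3. The 10 genes of subunits used in most tissues had a median of -0.065, with 9 below 0. Cox6b1 had 676, 642 and 741 TPM in cKO and 670, 805 and 589 TPM in WT, a log2 fold change of -0.028 (SE 0.117). Cox4i1, the form of its subunit used in most tissues, had 511, 561 and 617 TPM in cKO and 508, 629 and 623 TPM in WT, a log2 fold change of -0.085 (SE 0.11). Cox7a2 differed more between libraries, with 131, 158 and 134 TPM in cKO and 171, 264 and 124 TPM in WT, a log2 fold change of -0.43 (SE 0.282, edgeR adjusted p = 0.745). WT library 2 alone set the upper end and, left out, moved the log2 fold change to -0.067. Cox7a2l, a factor that joins complexes III and IV into supercomplexes, had 211 ± 15.8 TPM in cKO and 225 ± 8.41 TPM in WT (SD, n = 3 each).

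Several complex IV subunits have a second gene that other tissues use. Cox6a2, Cox7a1 and Cox8b serve heart and skeletal muscle, Cox6b2, Cox7b2 and Cox8c serve testis, and Cox4i2 is the form of lung. Ndufa4l2 is the hypoxia-induced relative of Ndufa4, which is named for complex I but is known as a complex IV subunit. All but Cox8c had counts in these thymic cells, at mean levels of 0.8 to 7.38 TPM for the complex IV forms and 1.27 TPM for Ndufa4l2. Their partners used in most tissues had 114 to 687 TPM. Cox6a2 shared 10.3% of its exon bases with Itgad on the other strand. Strand was ignored in counting, so reads of both genes cannot be told apart there. Cox8c had 0 counts in all 6 libraries, which allows up to 0.0598 to 0.0645 CPM, counts divided by the library total, in the cKO libraries and 0.0618 to 0.066 in the WT libraries at a floor of 3 counts (counting error only).

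No isoform share was shown to differ between cKO and WT. The share is the restricted form's TPM over the sum of the pair, and the 7 pairs that could be tested gave 2-sided exact permutation p-values of 0.3 to 1, or 0.875 to 1 after Benjamini-Hochberg adjustment. With 3 libraries against 3 the smallest possible p is 0.1, so this test could not have passed 0.05. Cox4i2 made up 1.27%, 1.04% and 1.23% of its pair in cKO and 1.06%, 1.27% and 1.43% in WT. Cox8b made up 1.45%, 1.17% and 2.23% in cKO and 1.49%, 0.843% and 1.15% in WT. Ndufa4l2 made up 1.27%, 0.728% and 0.355% in cKO and 1.44%, 0.704% and 1.44% in WT. In each of these pairs the libraries of the groups overlapped.

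**Figure D4:**
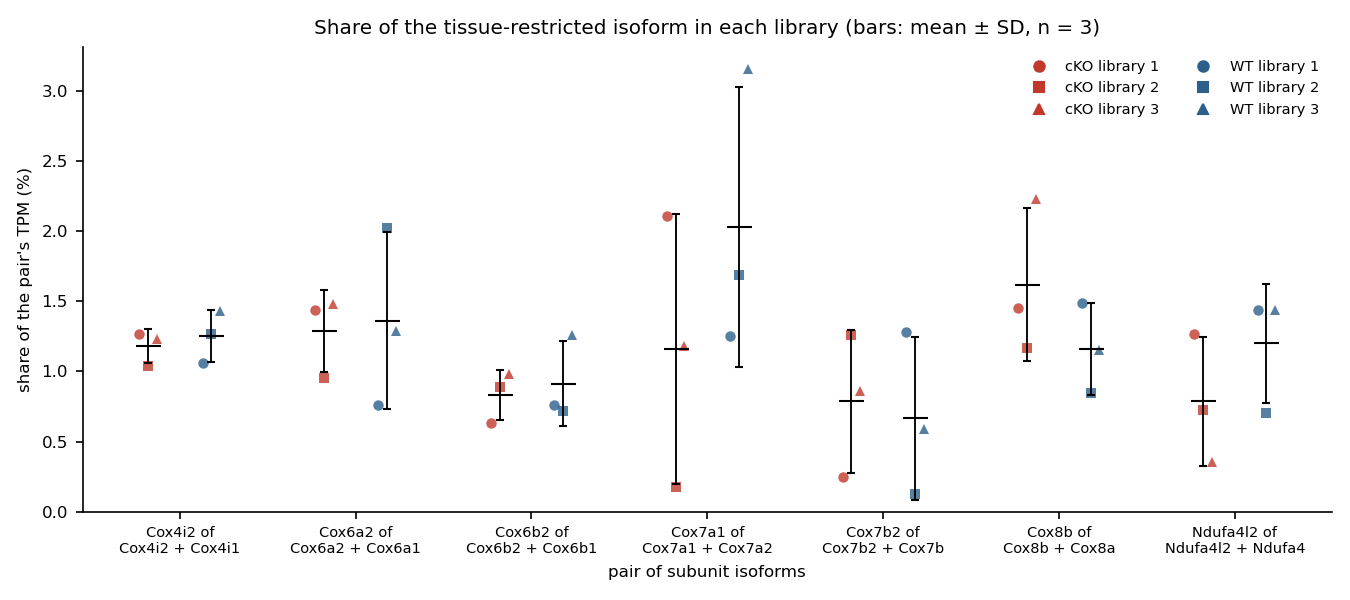
Share (%) of the tissue-restricted isoform in the summed TPM of its pair, with 1 point per library, cKO left of WT, and the mean ± SD of 3 libraries. Every pair overlaps between cKO and WT, all means lie between 0.666% and 2.03%, and the widest spread is that of Cox7a1.

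Cox7a1 had the widest difference of the isoforms and rested on few reads. It had 31, 3 and 19 counts in cKO and 23, 52 and 47 counts in WT, which overlapped. Its log2 fold change was -1.21 (SE 0.613, edgeR adjusted p = 0.637), and without cKO library 2, which held 3 counts, it was -0.72. Cox6a2 had 4.56 ± 1.24 TPM in cKO and 4.75 ± 1.58 TPM in WT (SD, n = 3 each), and Cox8b had 8.59 ± 2.85 TPM in cKO and 6.17 ± 0.991 TPM in WT, so the means of the muscle forms stood on both sides. Among the testis forms, Cox6b2 had 5.8 ± 1.51 TPM in cKO and 6.17 ± 1.23 TPM in WT, and Cox7b2 had 3 to 13 counts in cKO and 2 to 16 in WT. The 22 muscle markers summed to 173 to 209 TPM in cKO and 170 to 194 TPM in WT, and 12 testis markers to 22.8 to 29.4 TPM in cKO and 29.1 to 33.8 TPM in WT. None of either list was at 0 in all libraries, and their part in the isoform values was not tested.

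Cox6c, a subunit of complex IV, has a close copy in the set, because the symbol pattern also takes Cox6c2, which has a single exon on chromosome 12 (56373593 to 56373823, minus strand, mm10), while Cox6c lies on chromosome 15 (35925886 to 35938246). GENCODE M21 annotates Cox6c2 as a processed pseudogene, an intronless copy. The coding sequence of Cox6c and the transcript of Cox6c2 are shown because they differ at 7 of 231 bases, given in capitals. They share 145 bases in a row.
Cox6c: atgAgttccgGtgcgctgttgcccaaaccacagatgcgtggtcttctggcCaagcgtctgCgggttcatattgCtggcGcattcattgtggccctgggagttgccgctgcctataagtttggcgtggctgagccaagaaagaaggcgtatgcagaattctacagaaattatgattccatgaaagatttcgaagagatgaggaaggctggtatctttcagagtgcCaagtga
Cox6c2: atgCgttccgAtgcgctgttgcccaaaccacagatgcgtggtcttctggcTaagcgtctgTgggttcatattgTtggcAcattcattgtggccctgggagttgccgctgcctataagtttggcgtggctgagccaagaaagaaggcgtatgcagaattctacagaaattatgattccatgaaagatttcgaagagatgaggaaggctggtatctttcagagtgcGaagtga
The copy had 1172, 1167 and 1505 counts in cKO and 1184, 1326 and 1312 counts in WT, against 2305, 3029 and 4073 counts in cKO and 2366, 3462 and 3163 counts in WT for Cox6c. Per length the order turned round, with a mean of 263 TPM for Cox6c2, whose row is 231 bases long, and 40.8 TPM for Cox6c, whose row is 3567 bases long. The log2 fold changes were -0.0051 (SE 0.109) for the copy and 0.051 (SE 0.192) for Cox6c, so cKO and WT were close in both. Ndufb4c showed the same order beside Ndufb4, an accessory subunit of complex I, at 104 and 11.5 TPM, with 0 differing bases in 390. Ndufs6b, a copy of Ndufs6, differed at 12 of 347 bases and stood at 68.1 TPM beside 57.6 TPM. It is not known how reads were placed between these genes and their copies. The levels of gene and copy, and their order, are therefore uncertain. Ndufa11b had at most 4 counts in any library.

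Of the 18 genes of complex V, 9 were above and 9 below 0, with a median of -0.010. Without the read-through row of Atp5o, 8 were above and 9 below 0, with a median of -0.047. With all 18, the median lay between -0.11 without WT library 1 and 0.019 without WT library 3. Among the 4 genes of the stator stalk, which holds the catalytic head in place, Atp5pb, Atp5h, Atp5j and Atp5o, the median was 0.11 with 3 above 0. Of the 5 genes of the head and rotor shaft, Atp5c1, the gamma subunit of the shaft, had 84.7, 137 and 69.9 TPM in cKO and 65.7, 77.3 and 66.9 TPM in WT. Its log2 fold change was 0.44 (SE 0.231, edgeR adjusted p = 0.678), the groups overlapped, and cKO library 2 was far above the rest. Without that library the log2 fold change was 0.13.

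The c ring, the part of the rotor that turns as protons pass, is made of 1 mature protein encoded by 3 genes. Atp5g3 had the highest level per length of the 3, at 197, 126 and 203 TPM in cKO and 151, 192 and 192 TPM in WT. The order of the 3 is uncertain, since intronless copies assigned to Atp5g2 and Atp5g1 held 5.75 and 2.45 times the counts of the gene. Atp5g2 had 32.4, 32.2 and 35.8 TPM in cKO and 40.6, 39.1 and 41.1 TPM in WT, and all cKO libraries lay below all WT libraries. Its log2 fold change was -0.29 (SE 0.102, unadjusted p = 0.0148, edgeR adjusted p = 0.464). Atp5g1 was lowest, at 11.4 ± 0.638 TPM in cKO and 12.1 ± 0.703 TPM in WT (SD, n = 3 each). All 3 had log2 fold changes below 0, at -0.11 for Atp5g1, -0.29 for Atp5g2 and -0.047 for Atp5g3.

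The smallest p of the whole set belonged to the second row named Atp5o (ENSMUSG00000116933, chromosome 16, 91684398 to 91926982, minus strand, mm10). It had 73.1, 77.3 and 88.3 TPM in cKO and 53.5, 47.3 and 47.8 TPM in WT, without overlap. Its log2 fold change was 0.66 (SE 0.126, unadjusted p = 0.000173), and it did not pass the adjusted test (edgeR adjusted p = 0.126). Over 17 alternatives its adjusted p ran from 0.000862 with DESeq2 to 0.528 without WT library 3, and it passed in 3 of them. The row is a read-through transcript annotation that runs from Atp5o, the stalk subunit OSCP, into Donson, the gene of a replication fork protein. Atp5o lies at 91925214 to 91931687 and Donson at 91676808 to 91688770, both on the minus strand. For the read-through row, 100% of the exon bases also lie in other genes. The counting credited each read to every gene it overlapped, so any read of this row could also be counted in another. The row of Atp5o itself had 1332, 1660 and 1380 counts in cKO and 1366, 1444 and 1154 counts in WT, a log2 fold change of 0.13 (SE 0.134, edgeR adjusted p = 0.845). Donson had 2017, 1881 and 2326 counts in cKO and 1649, 2057 and 1771 counts in WT, a log2 fold change of 0.17 (SE 0.105, edgeR adjusted p = 0.704). Both of these overlapped between groups.

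Small membrane subunits of complex V help ATP synthase form dimers, and 2 of their 5 genes, Atp5k and Atp5md, had the widest ranges within a group among the 78 OXPHOS genes with a mean of at least 100 counts. Atp5k, subunit e, had 26.4, 48.1 and 149 TPM in cKO and 28.1, 26.7 and 147 TPM in WT, so library 3 was far above the others in both groups. Atp5md had 2.35, 20.3 and 1.68 TPM in cKO and 2.21, 9.4 and 1.51 TPM in WT, with library 2 far above in both groups. The log2 fold changes were 0.13 (SE 1.09) for Atp5k and 0.83 (SE 1.36) for Atp5md. Of those 78 genes, 6 (7.69%) had a range of 2-fold or more within a group, beside 737 of 18834 genes (3.91%) in the series table. They were Atp5j2, Atp5k, Atp5md, Cox7a2, Ndufa4 and Ndufc1. Ndufa4 had 110, 81.9 and 207 TPM in cKO and 151, 156 and 106 TPM in WT.

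The highest levels fell most often in 1 library of each group. Of the 83 tested, 28 had their highest scaled level in cKO library 3 and 23 in WT library 2, or 33.7% and 27.7%, beside 17.7% and 16.6% of all tested genes. The lowest level fell in cKO library 2 for 24 and in WT library 1 for 21, or 28.9% and 25.3%, beside 17.2% and 15.4% of all tested genes. The summed thymocyte markers were highest in library 2 of both groups, at 121 TPM in cKO and 132 TPM in WT, as was Atp5md. Their part in these patterns was not tested, and the files hold no measure of RNA quality.

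Many OXPHOS genes have processed pseudogenes, intronless copies of their messenger RNA elsewhere in the genome. Atp5md and its copy Gm14539 on chromosome X are shown because the first 174 bases of the coding sequence of Atp5md, on chromosome 19, hold no difference from the copy, so none of its bases is in capitals.
Atp5md: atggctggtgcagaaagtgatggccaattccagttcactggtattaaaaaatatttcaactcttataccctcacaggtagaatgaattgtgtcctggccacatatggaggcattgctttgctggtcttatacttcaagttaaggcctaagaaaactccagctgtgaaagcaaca
Gm14539: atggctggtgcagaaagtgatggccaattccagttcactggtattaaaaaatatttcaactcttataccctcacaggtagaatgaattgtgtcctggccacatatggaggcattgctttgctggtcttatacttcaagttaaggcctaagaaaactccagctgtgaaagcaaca
Gm14539 had 2877, 2717 and 3847 counts in cKO and 2470, 3162 and 2877 counts in WT, more than Atp5md itself, which had 133, 1105 and 103 counts in cKO and 121, 557 and 91 counts in WT. With its 3 pseudogenes added, Atp5md had a log2 fold change of 0.20 (SE 0.131), and its scaled counts ranged 1.3-fold in cKO and 1.39-fold in WT. Alone, its scaled counts ranged 11.7-fold in cKO and 6.33-fold in WT. The pseudogenes held 8.91 times the counts of Atp5md, so the sum mostly followed the pseudogenes. What set the range of Atp5md alone was not tested.

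In all, 54 of the 85 genes shared at least 1 stretch of 50 bases, on either strand, with another gene's transcript. Of these, 38 shared one with a pseudogene. Some of the sharing was with genes that overlap at the same locus and not with copies. For 31 of the 85 genes exon bases also lay in another gene, and for 12 of them more than 10% did. For 22 genes, 38 processed pseudogenes could be assigned, and for 11 genes the pseudogenes held more counts than the gene. The ratio of mean counts, pseudogenes over gene, was 8.91 for Atp5md, 6.67 for Atp5l, 5.75 for Atp5g2, 3.94 for Atp5h and 2.6 for Cox7c. For Atp5g2, adding the 2 pseudogenes moved the log2 fold change to -0.20 (SE 0.075, edgeR adjusted p = 0.502). The assigned pseudogenes together held 0.117% ± 0.00911 of counts in cKO and 0.121% ± 0.00608 in WT (SD, n = 3 each). Counts of these genes are uncertain, since it is not known how reads were placed between gene and copy. Reads with several alignments were left out of the counts. Gm14539, without a difference from Atp5md over 174 bases, still had counts, and the reason could not be seen. With the pseudogene counts added to their genes, 0 OXPHOS genes were called in either direction.

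**Figure D5:**
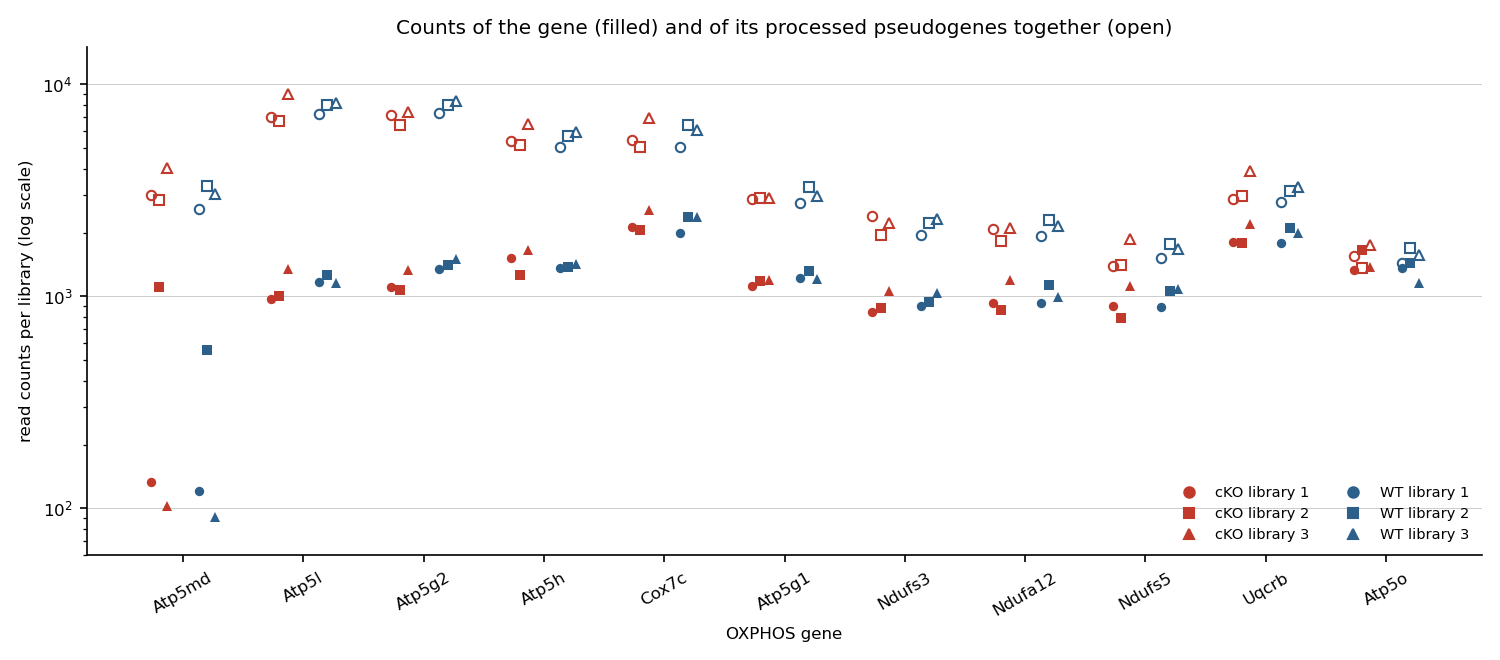
Read counts per library (log axis) of the 11 OXPHOS genes whose assigned processed pseudogenes held more counts than the gene, with filled symbols for the gene and open symbols for its pseudogenes together, cKO left of WT. Open symbols lie above filled ones for every gene in every library except cKO library 2 of Atp5o, and Atp5md alone has libraries (number 2 in both groups) far above the others.

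As a sequence feature the symbol pattern did not use, the windows from 250 bases before to 50 bases after the RefSeq gene start (GRCm38.p6) were searched on both strands for motifs of factors known to regulate respiratory genes. Of the 84 symbols, 65 had such a window. The palindromic NRF1 motif GCGCATGCGC was in 5 of them (7.69%), beside 1.07% of 27025 genes. Those 27025 genes were all that had such a window, matched neither for expression in these cells nor for base composition. The ETS motif CCGGAAGT was in 5 (7.69%), beside 4.31% of genes, and the YY1 motif AAGATGGC was in 10 (15.4%), beside 3.19%. None of the 3 motifs contains another. The NRF1 matches of Cox6a1 (chr5:115349102-115349129, minus strand) and Ndufa11 (chr17:56717693-56717720, plus strand), which lie outside the exons of the count files, are shown with the motif in capitals.
Cox6a1: aggaacgggGCGCATGCGCgctctcgct
Ndufa11: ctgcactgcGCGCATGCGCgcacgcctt
Cox6a1 had 300, 356 and 391 TPM in cKO and 395, 298 and 388 TPM in WT, with overlap, while Ndufa11 was the accessory gene of complex I described with all cKO libraries below WT. The other genes with this motif were Atp5g2, Atp5k and Uqcrc1. A match describes the letters and is no evidence of binding.

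Related gene lists gave no called gene in cKO against WT either. The 4 genes of complex II, which the symbol pattern leaves out, all had log2 fold changes above 0, and Sdha, its flavoprotein, had 114, 120 and 114 TPM in cKO and 97.2, 96.6 and 94.1 TPM in WT. That gave a log2 fold change of 0.25 (SE 0.0719, edgeR adjusted p = 0.346) with no overlap between groups. Assembly factors had median log2 fold changes of -0.0071 for the 18 of complex I, 0.075 for the 6 of complex III, 0.018 for the 25 of complex IV and -0.056 for the 5 of complex V. Sco2, the p53 target that delivers copper to complex IV, had the smallest p among the complex IV factors, with a log2 fold change of -0.28 (SE 0.166, edgeR adjusted p = 0.7). Of 20 regulators of mitochondrial gene expression 13 were below 0, and Ssbp1, which binds single-stranded mitochondrial DNA, had the smallest p at a log2 fold change of -0.35 (SE 0.131, edgeR adjusted p = 0.486).

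Neighbouring pathways also held no called gene. The 18 genes of the tricarboxylic acid cycle had a median of 0.027, and Idh3b, a subunit of isocitrate dehydrogenase, had the smallest p at a log2 fold change of 0.31 (SE 0.119, edgeR adjusted p = 0.512). The 18 glycolysis genes had a median of -0.0094, and Pfkl, the liver form of phosphofructokinase, had the smallest p at -0.37 (SE 0.102, edgeR adjusted p = 0.31). Among 18 p53 targets in mitochondria and metabolism, Cpt1c, a relative of the carnitine transferases, had a log2 fold change of -0.74 (SE 0.147, edgeR adjusted p = 0.142). In the list of 5 genes used to check p53 loss, 3 passed and were lower in cKO, namely the deleted Trp53 itself, Ccng1 and Cdkn1a. Cdkn1a, the cell cycle inhibitor p21, had 82.6, 84.9 and 74.5 TPM in cKO and 156, 149 and 139 TPM in WT. Its log2 fold change was -0.90 (edgeR adjusted p = 0.000445). Phlda3, at -0.83 (edgeR adjusted p = 0.056), and Mdm2, at -0.12 (edgeR adjusted p = 0.714), did not pass.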

How the data were processed

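Poly(A) RNA from sorted mTEChi was sequenced in paired ends after a strand-specific library preparation, per the labels' protocols. The submitters' processing notes list TopHat2 2.1.1, SAMtools 1.9, Subread 2.0.1 and the build mm10. The deposited counts are whole reads per gene; per the file headers they came from featureCounts 2.0.0 with Ensembl release 99 of GRCm38, ignoring strand, counting each mate, leaving out reads with several alignments, and crediting a read to every gene it overlaps. Reads of antisense and overlapping genes therefore cannot be told apart. TPM values were made by the authors from these counts and deposited in the series table, and they matched counts per length rescaled to within 0.000834%. TPM was used for levels and shares, and counts for tests.

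The counts of 55385 genes were fitted with edgeR 4.0.16 in R 4.3.3 (TMM scaling, filterByExpr, robust quasi-likelihood F test), with 28543 genes tested, Benjamini-Hochberg adjustment over them and a threshold of 0.05. SE is the log2 fold change over the square root of F. Alternatives were DESeq2 1.42.0, limma 3.58.1, other scalings and filters, a replicate block, and each library left out. Shared stretches of 50 bases were counted in GENCODE M21 transcripts, and a pseudogene was assigned to a gene that held at least 10% of its stretches. A floor of 3 counts was 0.0598 to 0.066 CPM, and floors cover counting error only. The OXPHOS genes and all gene lists were chosen with earlier results of these data known. Genes named were those with the smallest p each way (5), the 3 highest by TPM in each complex, tissue isoforms with partners, the Atp5g genes and genes whose groups did not overlap; Ndufv1, Uqcrq, Cox7a2l and the genes named for copies, pseudogenes or their range within a group were chosen after their values were seen.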

Additional observations from a re-analysis of the deposited data

How the results depend on the processing

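The count of OXPHOS genes called higher in cKO was 0 in the edgeR fit, 1 with DESeq2, 2 without a filter on low counts and 1 with the replicate number as a block; no setting called an OXPHOS gene lower. The read-through row of Atp5o was called in all 3 of these, and Ndufa6 without the filter. Of all genes, 7 were higher and 10 lower in the edgeR fit, or 0.0245% and 0.035% of 28543. The counts were 137 and 49 with DESeq2, 108 and 52 without a filter, and 138 and 65 with the replicate block. They were 0 and 6 without robust estimation, and 0 and 5 with limma-voom. Without the filter more genes were tested. Leaving out 1 library gave 0 to 7 higher and 5 to 9 lower. Adding pseudogene counts, and leaving out the copy and read-through rows (median log2 fold change -0.036), were chosen after seeing the data.

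The labels do not say whether equal replicate numbers mark a shared litter or day. The correlations of deviations between same-numbered libraries were weak, at 0.113, 0.0544 and 0.0755, and each library correlated best with its own number, so whether the numbers pair the libraries is not known. The numbers were not used as pairs in the edgeR fit. With the replicate block 138 genes were higher and 65 lower, so the block raised the calls; of the OXPHOS genes it called the read-through row of Atp5o alone.

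With 1 library left out, median log2 fold changes turned direction for all OXPHOS genes (-0.094 to 0.021), complex I (-0.078 to 0.041), complex III (-0.067 to 0.0045) and complex V (-0.11 to 0.019), while that of complex IV ran from -0.17 to -0.012. Medians of smaller groups within a complex were not recomputed. Without 1 library the log2 fold change of Atp5c1 ran from 0.13 to 0.62 and that of Cox7a2 from -0.66 to -0.067. Differences in isoform share, cKO minus WT in percentage points, turned direction with 1 library left out for Cox4i2 (-0.169 to 0.0158), Cox6a2 (-0.363 to 0.265), Cox6b2 (-0.178 to 0.0936) and Cox7b2 (-0.148 to 0.43). So did the log2 fold changes of Atp5g3 (-0.18 to 0.15), Cox6a1 (-0.17 to 0.037), Cox6a2 (-0.34 to 0.16), Cox6b1 (-0.13 to 0.12), Cox6b2 (-0.34 to 0.068), Cox7b2 (-0.38 to 0.90), Cox8a (-0.19 to 0.030), Ndufa1 (-0.24 to 0.11), Ndufa4 (-0.55 to 0.20), Ndufb9 (-0.048 to 0.040), Uqcr10 (-0.0012 to 0.095), Uqcrfs1 (-0.055 to 0.0010) and Uqcrh (-0.28 to 0.11). Ndufb9 also turned to -0.0090 when scaled by library totals and to -0.0018 with upper-quartile scaling. The cause was not tested for any of these. Genes of low count, such as Cox7a1 and Cox7b2, and genes with near-identical copies are the least certain; with 3 libraries a group, isoform shares could not pass a permutation test, and mitochondrially encoded subunits were not measured.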
